A study of Mus musculus with 40 samples.

Results

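The replication-dependent histone genes were described here through 375 of the 863771 ChIP-seq regions deposited for 7 chromatin targets in mouse small pre-B cells. A region belonged to them when its nearest gene in the deposited annotation, within 200 kb, was one of the clustered genes whose symbol begins with Hist1h, Hist2h, Hist3h or Hist4h. These were 38 of 81440 regions for CTCF, 27 of 88793 for RAD21, 28 of 83467 for SMC3, 27 of 61724 for NIPBL, 35 of 127769 for WAPL, 103 of 240561 for H3K27ac and 117 of 180017 for H3K4me1, and they fell to 63 gene symbols. The choice used a region's position and no ChIP level. In the mm9 build the regions of the Hist1 cluster lay in a pair of spans of chromosome 13, from 21801817 to 22143368 and from 23603069 to 24049116, and those of the Hist2 cluster lay on chromosome 3 from 96023009 to 96082634. The Hist3 genes are on chromosome 11 and Hist4h4 is alone on chromosome 6.

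The cells were small pre-B cells, the stage at which immunoglobulin light chain genes are rearranged, flow-sorted from bone marrow and, for the main comparison, not cultured. The groups were wild type (WT), Brwd1 knockout (BRWD1KO in the labels, KO below) and WT cells held in culture with 126 nM Oligomycin A for 2 h, labelled ATPneg. Each group had 2 ChIP libraries a target, named replicates 1 and 2, and the ATPneg group existed for NIPBL, RAD21, SMC3 and WAPL. Brwd1 encodes a protein with bromodomains, which bind acetylated histones. Strain, age and whether animals were pooled are not given in the sources used here. No cultured control without the drug was analysed here, so the drug and the time in culture cannot be told apart.

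Replication-dependent histone genes encode the linker histone H1 and the core histones H2A, H2B, H3 and H4 that package newly made DNA. They are short, have no introns, end their messages in a stem-loop in place of a poly(A) tail, and are transcribed mainly in S phase under NPAT. Many are arranged head to head, an H2A gene beside an H2B gene with the promoter between them, and many copies are nearly identical, so short reads from one can align to another. Small pre-B cells have largely left the cell cycle after the proliferation of large pre-B cells.

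Of the 63 symbols, 62 matched a RefSeq gene and 56 had a promoter in the RefSeq table of build GRCm38.p6, which spans 250 bases before and 50 after the gene start. The promoters below are those of genes that carry the results: both members of a near-identical H4 pair with raised NIPBL signal, an H2B, an H1 and a Hist2 gene whose H3K4me1-labelled signal fell, and the isolated Hist4h4. Capitals mark matches to short motifs, each searched on both strands. One is TATAAA, which binds the TATA box protein. Another is CCAAT, bound by NF-Y, whose reverse match reads ATTGG. The octamer ATTTGCAT is bound by Oct factors. The element AAACACA is known from promoters of H1 genes.
Hist1h4k: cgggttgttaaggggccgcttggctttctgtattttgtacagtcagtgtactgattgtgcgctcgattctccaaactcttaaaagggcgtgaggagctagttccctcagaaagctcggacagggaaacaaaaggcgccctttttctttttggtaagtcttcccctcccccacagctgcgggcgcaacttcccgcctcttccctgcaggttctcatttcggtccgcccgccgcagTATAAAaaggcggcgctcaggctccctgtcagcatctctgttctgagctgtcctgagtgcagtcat
Hist1h4j: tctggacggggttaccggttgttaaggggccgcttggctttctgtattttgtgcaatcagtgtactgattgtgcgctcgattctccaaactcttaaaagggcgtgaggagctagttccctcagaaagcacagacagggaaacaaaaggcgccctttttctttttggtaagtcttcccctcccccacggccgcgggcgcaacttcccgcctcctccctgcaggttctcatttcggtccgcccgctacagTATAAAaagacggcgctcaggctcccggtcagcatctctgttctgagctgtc
Hist1h2bb: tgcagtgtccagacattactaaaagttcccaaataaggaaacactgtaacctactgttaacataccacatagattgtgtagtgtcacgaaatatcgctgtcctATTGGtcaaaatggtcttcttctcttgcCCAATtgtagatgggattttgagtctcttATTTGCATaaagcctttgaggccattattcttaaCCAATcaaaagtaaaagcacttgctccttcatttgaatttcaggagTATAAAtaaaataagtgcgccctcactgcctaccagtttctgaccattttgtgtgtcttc
Hist1h1c: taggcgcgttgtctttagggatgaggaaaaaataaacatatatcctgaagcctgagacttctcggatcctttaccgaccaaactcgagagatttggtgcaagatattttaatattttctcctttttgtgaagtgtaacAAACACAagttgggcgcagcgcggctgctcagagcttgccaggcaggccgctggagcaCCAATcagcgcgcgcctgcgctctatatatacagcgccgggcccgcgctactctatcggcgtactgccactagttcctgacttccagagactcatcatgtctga
Hist2h2ab: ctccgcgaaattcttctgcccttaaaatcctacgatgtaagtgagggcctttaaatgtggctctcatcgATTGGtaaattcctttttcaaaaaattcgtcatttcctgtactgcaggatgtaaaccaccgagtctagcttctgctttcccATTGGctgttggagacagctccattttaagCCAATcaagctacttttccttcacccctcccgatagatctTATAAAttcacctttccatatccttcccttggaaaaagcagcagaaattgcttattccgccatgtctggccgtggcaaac
Hist4h4: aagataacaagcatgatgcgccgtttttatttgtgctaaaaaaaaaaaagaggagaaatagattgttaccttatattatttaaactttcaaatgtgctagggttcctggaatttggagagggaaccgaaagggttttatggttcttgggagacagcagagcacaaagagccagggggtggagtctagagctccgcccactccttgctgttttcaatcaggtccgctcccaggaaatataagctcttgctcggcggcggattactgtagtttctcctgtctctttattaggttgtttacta
In GRCm38.p6 these lie at chr13:21750504-21750803 on the minus strand (Hist1h4k), chr13:21734784-21735083 on the plus strand (Hist1h4j), chr13:23746484-23746783 plus (Hist1h2bb), chr13:23738557-23738856 plus (Hist1h1c), chr3:96219635-96219934 plus (Hist2h2ab) and chr6:136804382-136804681 minus (Hist4h4). The windows of Hist1h4j and Hist1h4k carried the same letter at 274 of 286 aligned positions (95.8%). The octamer stood in 21.4% of the 56 histone promoters and in 1.75% of all 27025 promoters of the table, in 6 of 15 H2A and 6 of 15 H2B promoters and in no promoter of another class. CCAAT stood in 85.7% against 37.9%, in every H1, H2A, H2B and H3 promoter of the table and in 3 of 11 H4 promoters. TATAAA stood in 58.9% against 14.2%, and AAACACA in 14.3% against 7.14%, with 4 of 5 H1 promoters holding it. The Hist4h4 window held none of these letter runs.

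Several labels go against each other, and results are given under the names of the files. The KO libraries of H3K27ac and H3K4me1 carry WT in their genotype label, but knockout in title and description, which were followed. Inside some peak lists the entries are named after a different sample. This holds for H3K27ac in KO (named h3k4me1), for H3K4me1 in WT (named as H3K27ac in knockout) and, between genotypes, for the second KO and first WT list of NIPBL. Which libraries are meant was not tested, so the marks are written as labelled. Reads of whole regions within 250 bp of any gene start were taken as a share of all reads in regions. With the H3K4me1 label that share was 4.95% to 5.01% in WT and 2.66% to 2.68% in KO. In the 4 libraries labelled H3K27ac it was 0.783% to 0.799%. The region sets differ: such regions were 3.68% of those with the H3K4me1 label and 1.02% of those with the H3K27ac label. Pre-B starts were marked in the libraries labelled H3K4me1 (Cd79b 86.0 and Blnk 91.2 mean CPM in WT; CPM is the read count scaled to library size), while those of 14 T cell, myeloid and erythroid genes summed to 0 to 4.88 CPM each. Reads in regions ran from 3784506 to 30496715 a library. The KO libraries were shallower for SMC3 (4010016 and 4242112 reads, against 17667209 and 15416715 in WT), NIPBL (3803369 and 3784506 against 17681215 and 16916106) and RAD21 (7415143 and 7194434 against 24962590 and 21848632). CTCF WT 2 held 17055094 reads and the other CTCF libraries 3880112 to 5033230. CTCF WT 2 and both RAD21 KO libraries stood apart at histone regions, and their values are given where they bear on a result.

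SMC3, a subunit of the cohesin ring that shapes chromatin loops, rose in KO at 17 of 28 histone regions and was called lower at 0 (edgeR, adjusted p under 0.05). DESeq2 called 17 higher and 0 lower of the 26 regions it tested, and 17 passed an unadjusted p under 0.05 in edgeR. Of all SMC3 regions tested 22.1% were called higher and 18.1% lower. The median log2 difference was 2.70 over the histone regions and -0.22 over all regions tested. The 17 lay in both the Hist1 cluster (13 of 24) and the Hist2 cluster (4 of 4) and beside genes of H4 (6 of 8), H2B (6 of 8), H2A (4 of 5) and H1 (1 of 7). No SMC3 region had an H3 gene as its nearest.

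The largest SMC3 gain of the histone regions lay at -6073 bp from the start of the H4 gene Hist1h4h (negative distances are upstream), at chr13:23616420-23616840 in mm9. Its signal was 14.5 and 12.9 CPM in KO and 1.11 and 0.688 CPM in WT, a log2 difference of 3.92 ± 0.31 (SE, adjusted p = 0.000588). Both KO libraries lay far above both WT libraries there. Near the H4 gene Hist1h4c (-2769 bp, chr13:23793088-23793342) KO held 16.2 and 14.7 CPM and WT 1.31 and 0.938 CPM, a log2 difference of 3.77 ± 0.27 (adjusted p = 0.000571). At 16426 bp from Hist1h4d, another H4 gene, the difference was 3.84 ± 0.40, and at 1107 bp from Hist1h2bl, an H2B gene, 3.64 ± 0.28. Beside the linker histone gene Hist1h1c (-5977 bp) KO held 11.7 and 13.8 CPM and WT 1.17 and 0.875 CPM. On chromosome 3, the site with the highest level lay 8259 bp from the H2B gene Hist2h2bb, in dense input, with 35.3 and 33.3 CPM in KO and 7.83 and 4.13 CPM in WT (2.52 ± 0.32). The largest chromosome 3 gain was at the H4 gene Hist2h4, with 12.9 and 11.3 CPM in KO and 1.83 and 1.06 CPM in WT (3.06 ± 0.33). Over the 17 regions, KO 1 ran from 4.53 to 35.3 CPM (median 13.6), KO 2 from 2.49 to 33.3 (13.8), WT 1 from 0.849 to 7.83 (1.31) and WT 2 from 0.188 to 4.13 (0.938). Over all histone SMC3 regions, KO and WT did not overlap at 21 of 28, as at 69.3% of all SMC3 regions.

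These regions coincided with CTCF, the DNA-binding insulator protein at which cohesin is known to be held. A CTCF peak in both WT libraries was found at 16 of the 28 histone SMC3 regions, against 14.6% of all SMC3 regions. All 16 rose, with a median log2 difference of 3.49, and each of them also had a CTCF peak in both KO libraries. The same share was seen across the genome: of 12215 SMC3 regions with a CTCF peak in both WT libraries 96.4% were called higher (median 3.62), and of the 64894 others 8.12% were higher and 21.4% lower. The histone share was near that background. One gain lay outside these CTCF sites, at the start of the H2A gene Hist2h2aa1 (chr3:96049376-96049844), with 11.9 and 15.8 CPM in KO and 4.50 and 3.50 CPM in WT (1.79 ± 0.26, adjusted p = 0.00302).

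The other 11 SMC3 regions were not called, and none of them had a CTCF peak in both WT libraries. At -29375 bp from Hist1h1e KO held 23.4 and 22.4 CPM and WT 20.1 and 17.9 CPM, and at 9676 bp from Hist1h2be KO held 21.9 and 24.0 CPM and WT 19.3 and 17.9 CPM. These were the highest SMC3 levels of the histone regions in WT. Both sites also held dense input, with 439 and 378 KO input reads per kb. A set of 4 regions between -16883 and -20307 bp from Hist1h1e had log2 differences of -0.35 to -0.69 that did not pass the test.

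**Figure D1:**
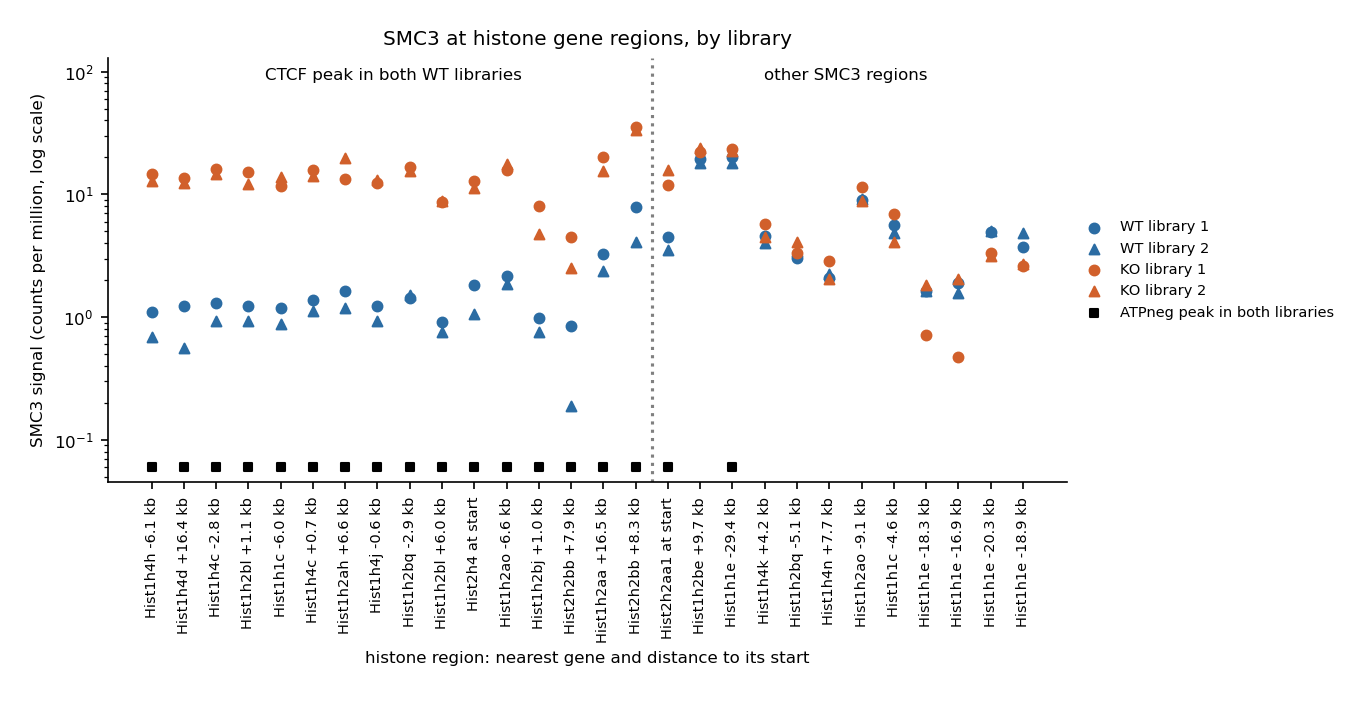
SMC3 signal in CPM (log axis) at the 28 histone regions, those with a CTCF peak in both WT libraries first and then by log2 difference, with 1 point for each of the 2 KO and 2 WT libraries; black squares mark an ATPneg peak in both libraries. At the 17 regions called higher both KO points lie above both WT points.

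RAD21, the cohesin subunit that closes the ring, was called higher at 1 of 27 histone regions and lower at 0 by edgeR, with 6 at an unadjusted p under 0.05. DESeq2 called 10 higher and 0 lower. Of all RAD21 regions 2.3% were called higher and 21.1% lower. The region that rose was at 2770 bp from the H4 gene Hist1h4f (chr13:23640567-23640742), with 14.4 and 12.4 CPM in KO and 5.89 and 7.01 CPM in WT (1.05 ± 0.24, adjusted p = 0.047). It had no CTCF peak in both WT libraries and held 699 KO and 597 WT input reads per kb. Without the filter the adjusted p was 0.14, with library totals 0.0502 and with background scaling 0.0562.

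At 12 of the 16 CTCF-bound SMC3 sites a RAD21 region overlapped, and there the RAD21 KO libraries did not behave alike. RAD21 KO 1 held 4.29 to 14.8 CPM (median 9.19) and KO 2 held 0.278 to 2.09 (0.834), while WT 1 held 0.793 to 3.09 (1.71) and WT 2 held 0.580 to 2.28 (1.79). At Hist1h4c -2677 bp, for example, the values were 13.8 and 1.25 CPM in KO and 2.30 and 1.83 CPM in WT. KO 1 lay above both WT libraries at every one of the 12 sites, and KO 2 lay below the higher WT value at every one. None of the 12 was called with all libraries (median log2 1.72), where 1.59% of all 7815 RAD21 regions with a CTCF peak in both WT libraries were higher and 0.269% lower. DESeq2 called 4 of the 10 it tested. All 12 were called higher without KO 2 (median 2.59) and none without KO 1 (median -0.39). A RAD21 peak was listed at 12 of the 12 in KO 1, at 0 in KO 2 and at 3 in either WT library.

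CTCF itself was called higher at 0 and lower at 0 of 37 histone regions tested, with 5 at an unadjusted p under 0.05 and none by DESeq2. Of all CTCF regions 0.00792% were called higher and 0.0317% lower, so calls were rare everywhere. At the CTCF regions that overlap the 16 SMC3 sites, KO 1 held 17.2 to 87.8 CPM (median 29.6), KO 2 17.7 to 109 (29.8), WT 1 14.6 to 78.1 (23.4) and WT 2 4.54 to 28.8 (7.12). The order of CTCF levels was led by the site near Hist2h2bb (87.8 and 109 CPM in KO, 78.1 and 28.8 CPM in WT) on chromosome 3. WT 2 was the lowest of the 4 libraries at all of these regions. These were 15 distinct CTCF regions, since 1 spans both sites near Hist2h2bb, and none was called. All 15 were called higher without WT 1, and 1 without WT 2. WT 2 also held a smaller share of its region reads in regions near gene starts, 1.53% against 4.84% to 5.64% in the other CTCF libraries. At the dense-input region 10946 bp from Hist1h4d it was the highest of the 4 libraries. The part of this library in the CTCF result was not tested.

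**Figure D2:**
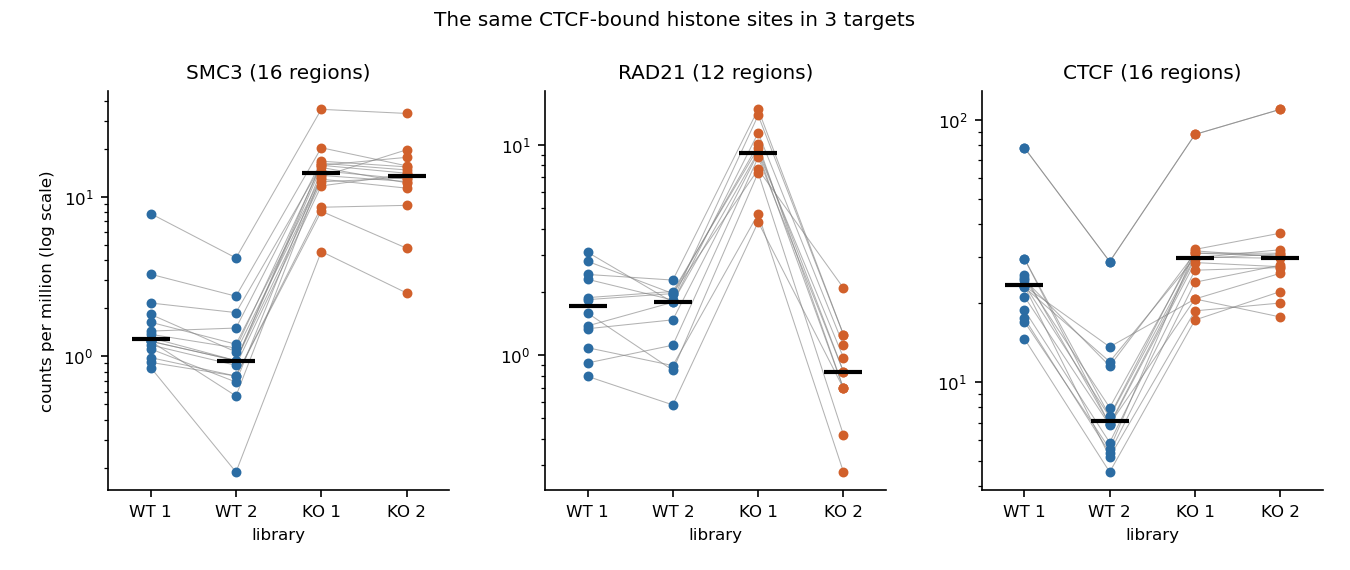
Signal in CPM (log axes) of SMC3, RAD21 and CTCF at the histone sites where SMC3 coincides with a CTCF peak of both WT libraries, by library; grey lines join the libraries at 1 site, black bars are medians, and the CTCF region shared by both sites near Hist2h2bb is drawn for each. SMC3 is high in both KO libraries, RAD21 in KO 1, and CTCF lies lowest in WT 2.

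The oligomycin libraries come as peak lists without counts, so their depth is unknown and their signal was not compared. An SMC3 peak was listed at 17 of the 17 gained SMC3 regions in both ATPneg libraries, at 17 in at least 1 KO library (11 in both) and at 1 in at least 1 WT library, the site 16499 bp from Hist1h2aa. The KO and WT peaks come from the libraries whose counts gave the gain, so they are no separate support for it. Of all SMC3 regions called higher, 84.5% had a peak in both ATPneg libraries, and of all with a CTCF peak in both WT libraries 96.0% did. Over all 28 histone SMC3 regions, 20 had an ATPneg peak in either library and 18 in both, against 24.6% and 20.2% of all SMC3 regions; 12 had a WT peak in either library and 18 a KO peak, against 83.4% and 18.4%. For RAD21, 18 of 27 had an ATPneg peak in either library and 8 in both (20.1% and 8.02% of all), 24 had one in either KO library (53.1% of all) and 9 in either WT library (57.9%). At the 12 RAD21 regions on CTCF-bound SMC3 sites all had a peak in either ATPneg library and 8 in both. Of all RAD21 regions with a CTCF peak in both WT libraries, 98.7% had an ATPneg peak in either library and 60.8% in both. The remaining SMC3 region with a peak in both ATPneg libraries was at Hist1h1e -29375 bp, which also held peaks in both WT libraries. The lists differ in length (SMC3 WT 41044 and 64033 peaks, KO 12467 and 12323, ATPneg 40667 and 39437), and list length moves such counts.

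NIPBL loads cohesin onto chromatin. It rose in KO at 6 of 27 histone regions and was called lower at 0 (13 at an unadjusted p under 0.05; DESeq2 tested 12 and called 5 higher and 0 lower). Of all NIPBL regions 0.995% were called higher and 0.63% lower. Without KO 1, WT 1 or WT 2 edgeR called 0, with 13, 13 and 12 at an unadjusted p under 0.05, and without KO 2 it called 2. With input-subtracted counts it called 0, with 3 at an unadjusted p under 0.05. All 6 were in the Hist1 cluster, 4 beside H4 genes and 2 beside H2B genes, and 3 of the 7 regions within 500 bp of a start rose, where 4.73% of all 338 such regions rose and 0% fell.

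The largest NIPBL gain was in the body of the H4 gene Hist1h4k, 126 bp from its start (chr13:21842133-21842248), with 30.9 and 23.2 CPM in KO and 9.77 and 7.18 CPM in WT (1.67 ± 0.21, adjusted p = 0.0045). The next was at 151 bp from Hist1h4j (chr13:21827117-21827232), with 20.9 and 21.8 CPM in KO and 8.40 and 6.43 CPM in WT (1.52 ± 0.19, adjusted p = 0.00495). Both are members of the H4 pair whose promoters are printed above and agree at 95.8% of letters. Those promoter windows end 50 bases after the start and do not reach either NIPBL region. Whether reads of one copy were placed on the other was not tested. At 110 bp from the H2B gene Hist1h2bn KO held 12.9 ± 1.6 CPM and WT 5.77 ± 0.83 CPM (mean ± SD, n = 2), a log2 difference of 1.16 ± 0.21 (SE). The gains at -13218 bp from Hist1h4h (550 and 428 CPM in KO, 233 and 150 in WT) and 5017 bp from Hist1h2bl (766 and 567 in KO, 394 and 270 in WT) lay where the input itself piled up. Over all histone NIPBL regions, KO and WT did not overlap at 18 of 27, against 55.2% of all NIPBL regions.

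Most of these regions held dense input. Of the histone NIPBL regions 25 of 27 held over 100 input reads per kb, against 68.2% of all NIPBL regions, and all 6 called regions were among the 25. At Hist1h2bl 5017 bp the KO input column held 13908 reads in 109 bp and the WT column 13183. The mean NIPBL CPM in KO was 0.244 to 0.426 times the KO input CPM at 5 of the 6 sites and 1.52 times at Hist1h4h -5523 bp. The input itself differed little between genotypes at the 6 sites (log2 KO minus WT -0.03 to -0.27). The part of input in the NIPBL result was not tested. No histone NIPBL region had a CTCF peak in both WT libraries, and only 1.28% of all NIPBL regions had one. A NIPBL peak was listed at 25 of 27 regions in either WT library and at 3 in either KO library (99.4% and 5.26% of all). ATPneg peaks were at 7 in either library and 3 in both (24.2% and 12.9% of all NIPBL regions), and at 0 of the 6 that rose.

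WAPL releases cohesin from chromatin. It was called higher at 10 and lower at 3 of 34 histone regions tested, where 13.1% of all WAPL regions were higher and 27.6% lower. With background scaling the split was 22 higher and 0 lower, and DESeq2 called 3 higher. Without KO 1 or KO 2 no WAPL region was called, with 7 and 9 at an unadjusted p under 0.05, without WT 1 17 were called and without WT 2 14. The largest gain was 8798 bp from Hist4h4 on chromosome 6 (chr6:136743997-136744154), with 3.13 and 4.49 CPM in KO and 1.40 and 1.73 CPM in WT (1.28 ± 0.29, adjusted p = 0.0202). In the H3 gene Hist1h3b (90 bp) KO held 11.4 and 10.1 CPM and WT 5.23 and 5.69 CPM (0.98 ± 0.16, adjusted p = 0.00961). At 4085 bp from Hist1h4d KO held 7.95 and 7.91 CPM and WT 4.21 and 4.06 CPM (0.94 ± 0.17, adjusted p = 0.0121). The other gains were at Hist1h4h -19640 bp (1.02), Hist1h2aa 12735 bp (1.06), Hist1h1d 1725 bp (1.01), Hist1h2bc 1794 bp (0.77), Hist1h2bk 63 bp (0.74), Hist1h4f 2763 bp (0.61) and Hist1h1e -29371 bp (0.32).

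All 3 WAPL losses lay upstream of the linker histone gene Hist1h1e. At -20741 bp (chr13:23735169-23735532) KO held 0.557 and 0.704 CPM and WT 1.21 and 1.63 CPM (-1.17 ± 0.29, adjusted p = 0.0277). At -18927 and -18152 bp the log2 differences were -1.14 and -1.11. These 3 regions held 2.75 to 16.5 input reads per kb, while the 10 that rose held 107 to 1716. Across the genome 55.7% of WAPL regions held over 100 input reads per kb. Histone WAPL regions that were not called also held dense input, with 3034 KO and 3186 WT reads per kb at Hist1h4k 113 bp. The part of input in the WAPL result was not tested. The WAPL losses and the SMC3 regions upstream of Hist1h1e that did not pass the test shared this stretch of chromosome 13. A WAPL peak was listed at 20 of 35 histone regions in either WT library, at 27 in either KO library and at 1 in ATPneg, the region at Hist1h1e -29371 bp in ATPneg 1. Among all WAPL regions 73.9% had a WT peak in either library, 59% a KO peak, 4.2% an ATPneg peak in either library and 1.64% in both.

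**Figure D3:**
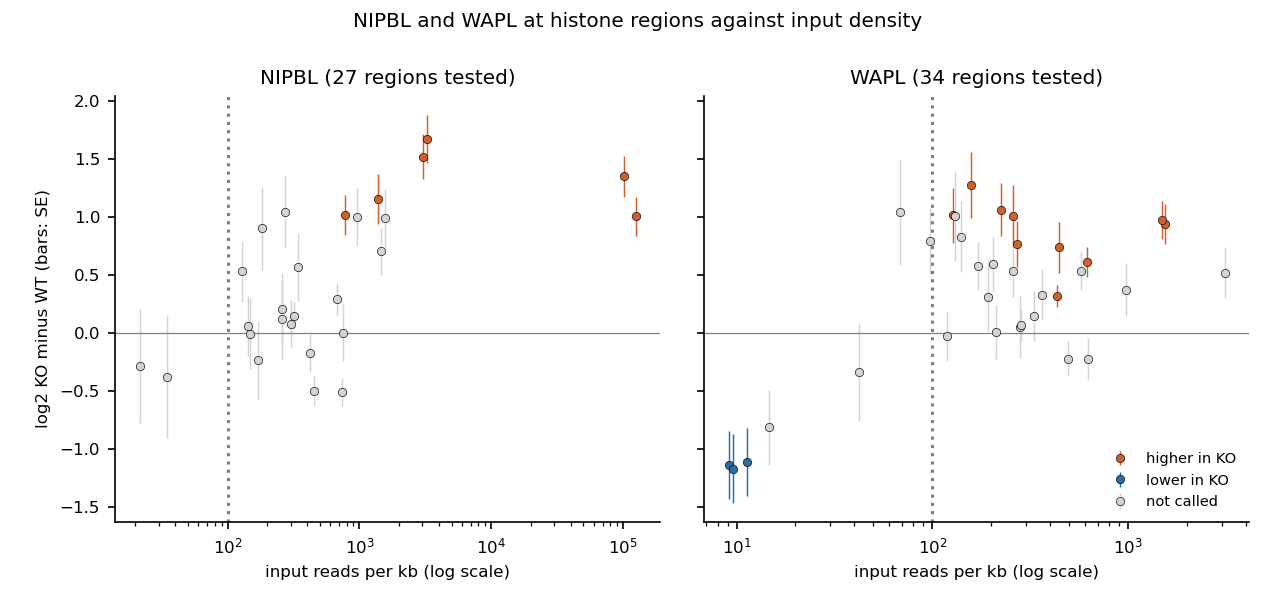
Log2 difference between KO and WT (bars are SE) of NIPBL and WAPL at histone regions against input reads per kb (log axis, mean of both genotypes); the dotted line marks 100 reads per kb. All 6 NIPBL gains lie right of the line, and the 3 WAPL losses lie left of it.

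In the libraries labelled H3K4me1, a mark of enhancers and promoter flanks, 53 of 117 histone regions fell in KO and 2 rose. Of all regions with that label 9.98% fell and 6.44% rose, with a median log2 difference of 0.00 against -0.36 at histone regions. The losses gathered at gene starts: within 500 bp of a start 42 of 65 fell and 0 rose, and farther away 11 of 52 fell. DESeq2 called 30 of the 65 lower and 0 higher. Loss at starts was common across the genome, since 67.5% of all 7779 regions within 500 bp of any gene start fell and 8.29% rose. The histone share of 64.6% was near this background, and the histone median of -0.65 was closer to 0 than the -1.11 of all start regions.

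The histone classes differed in how many start regions fell. H2A genes had 16 of 16 lower (median -1.28), H1 genes 4 of 5 (-0.87), H2B genes 11 of 18 (-0.41), H4 genes 7 of 13 (-0.41) and H3 genes 4 of 13 (-0.27). These counts describe the classes, and their difference was not tested. Among the H1 genes Hist1h1d went from 5.03 and 5.34 CPM in WT to 2.01 and 1.74 in KO (-1.47 ± 0.19), Hist1h1b from 6.12 and 5.73 to 2.73 and 2.61 (-1.14 ± 0.17), and Hist1h1c, with the highest H1 level, from 24.3 and 26.1 to 14.8 and 15.0 (-0.76 ± 0.08). Hist1h1a, whose start held 6.40 and 6.65 CPM in WT and 7.17 and 7.21 in KO, was not called. KO and WT did not overlap at any of the 9 regions of H1 genes, and KO lay above WT at 1 of them, Hist1h1a. Over all histone regions with this label they did not overlap at 92 of 117, against 53.1% of all its regions.

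The largest losses of this label were in the Hist2 cluster, where 7 of 10 start regions fell (median -1.70). At the H3 gene Hist2h3c2 (-95 bp, chr3:96043146-96044229) the level was 16.8 and 17.3 CPM in WT and 0.911 and 2.27 CPM in KO (-3.41 ± 0.15, adjusted p = 1.58e-100). At the H2A gene Hist2h2aa1 it was 18.3 and 16.8 CPM in WT and 1.70 and 2.67 CPM in KO (-2.99 ± 0.13), and at Hist2h2ab, whose promoter with its CCAAT runs is printed above, 14.4 and 16.1 CPM in WT and 2.43 and 1.92 CPM in KO (-2.82 ± 0.14). Both KO libraries lay far below both WT libraries at these 3 starts. At Hist2h4 it was 25.7 and 24.6 CPM in WT and 8.20 and 7.84 CPM in KO (-1.65 ± 0.09). Elsewhere the largest loss was at Hist1h2bb (-133 bp, chr13:23837669-23838470), the H2B gene with an octamer in its promoter, from 10.9 and 11.2 CPM in WT to 1.76 and 1.92 in KO (-2.58 ± 0.16). In the body of the same gene, 76 bp from the start, WT held 11.7 and 12.2 CPM and KO 9.48 and 10.5 CPM, and the difference of -0.26 was not called.

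Of the histone regions with the H3K4me1 label 27 had a peak in both WT libraries and in neither KO library, a pattern of 5.51% of all regions with that label. Of these 27, 23 fell. Peaks and counts come from the same libraries, so the choice by peaks largely fixed that outcome. A further 61 had a peak in all 4 libraries, and 22 of these fell. The share of all regions with a peak in all 4 libraries was not counted. The median length of the 27 was 731 bp. The 2 regions that rose were 1400 bp from Hist1h3e (0.470 and 0.423 CPM in WT, 1.46 and 0.930 in KO) and 13914 bp from Hist1h2aa.

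In the libraries labelled H3K27ac, a mark of active promoters and enhancers, 36 of 103 histone regions rose in KO, 10 fell and 2 were too low to test. Of all regions with that label 5.9% rose and 10.6% fell, and the medians were 0.31 at histone regions and 0.02 over all. With background scaling the histone split was 27 higher and 14 lower, and DESeq2, which tested 61, called 18 and 5. Within 500 bp of a start 21 of 46 rose and 4 fell, where 7.71% of all 3412 regions near a start rose and 29.7% fell. Over the settings 8 to 25 of them rose and 1 to 5 fell, the lowest counts being those of DESeq2, which tested 25 of the 47.

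The gains with this label came from most classes. H2B starts had 8 of 12 higher and 0 lower (median 0.66), H3 starts 7 of 13 higher and 2 lower, H4 starts 4 of 11 higher, H1 starts 2 of 3 higher and H2A starts 0 of 7 higher and 2 lower. The largest gain at a start was at the H4 gene Hist1h4i (95 bp, chr13:22132872-22133126), from 1.34 and 1.03 CPM in WT to 3.38 and 3.77 in KO (1.59 ± 0.20, adjusted p = 2e-11). At Hist1h3d, an H3 gene, the level went from 2.18 and 2.50 CPM to 4.72 and 4.84 (1.03 ± 0.16), and at Hist1h2bb (180 bp) from 4.35 and 4.52 to 9.23 and 7.99 (0.96 ± 0.12). At Hist1h1c (110 bp) WT held 6.34 and 5.98 CPM and KO 10.5 and 11.4 CPM (0.83 ± 0.10). The highest start level was at the H2B gene Hist1h2ba, with 12.7 and 12.4 CPM in WT and 22.7 and 22.5 CPM in KO (0.85 ± 0.07). Over all histone regions with this label, KO and WT did not overlap at 77 of 103, against 53.5% of all its regions.

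The 4 start regions that fell with the H3K27ac label were at Hist2h2ab, Hist2h2aa1, Hist2h3c2 (-170 bp) and Hist1h3c (-442 bp). The 3 Hist2 regions overlap the starts with the largest losses of the H3K4me1 label. The Hist1h3c region (chr13:23837833-23838076, log2 difference -1.41) lies inside the H3K4me1-labelled region at Hist1h2bb -133 bp. That region had the largest loss of the H3K4me1 label outside Hist2 (-2.58). At Hist2h2ab WT held 2.79 and 2.24 CPM and KO 0.459 and 0.666 CPM (-2.15 ± 0.27, adjusted p = 8.97e-12). At Hist2h2aa1 WT held 2.21 and 2.68 CPM and KO 1.21 and 0.533 CPM (-1.47 ± 0.25). In the body of Hist2h3c2 (213 bp) the same label rose, from 1.30 and 1.47 CPM to 2.51 and 2.31 (0.80 ± 0.21). The Hist1 cluster had 18 of 35 start regions higher and 1 lower, and the Hist2 cluster 2 of 7 higher and 3 lower; this difference was not tested.

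**Figure D4:**
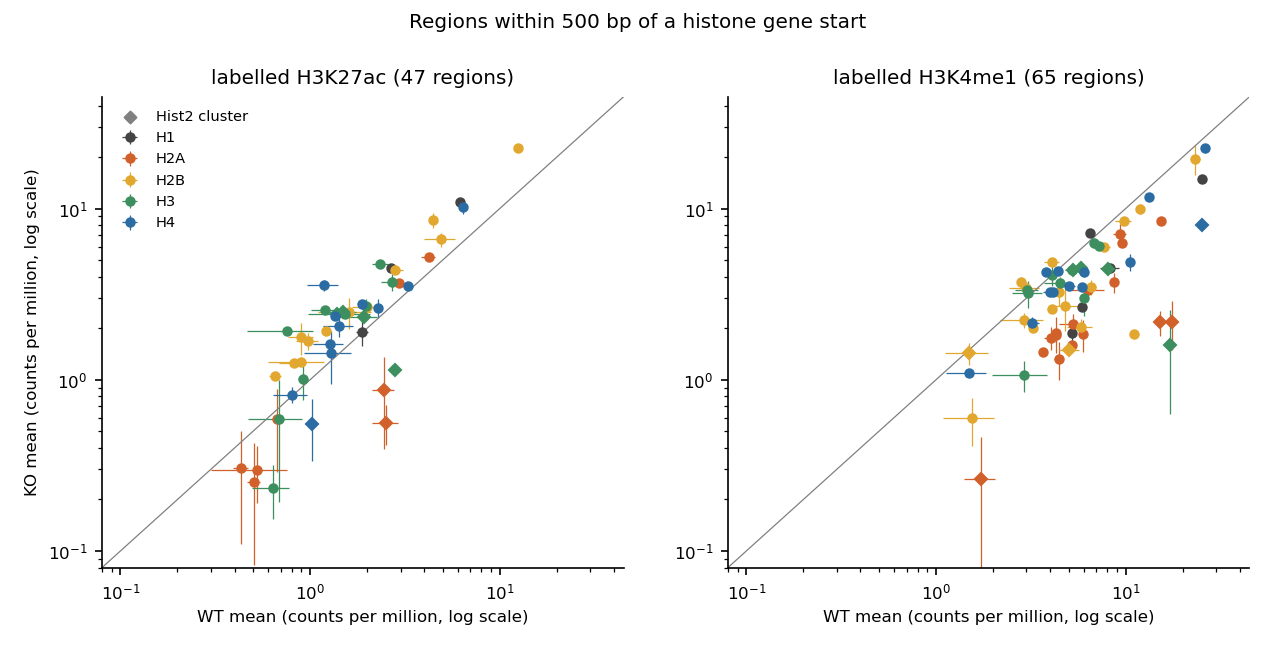
Mean CPM in WT and KO (log axes, bars are SD of 2 libraries) at regions within 500 bp of a histone gene start, for both mark labels, coloured by histone class, with diamonds for the Hist2 cluster. With the H3K4me1 label the Hist2h3c2, Hist2h2aa1 and Hist2h2ab starts lie farthest below the diagonal; with the H3K27ac label most points lie just above it.

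**Figure D5:**
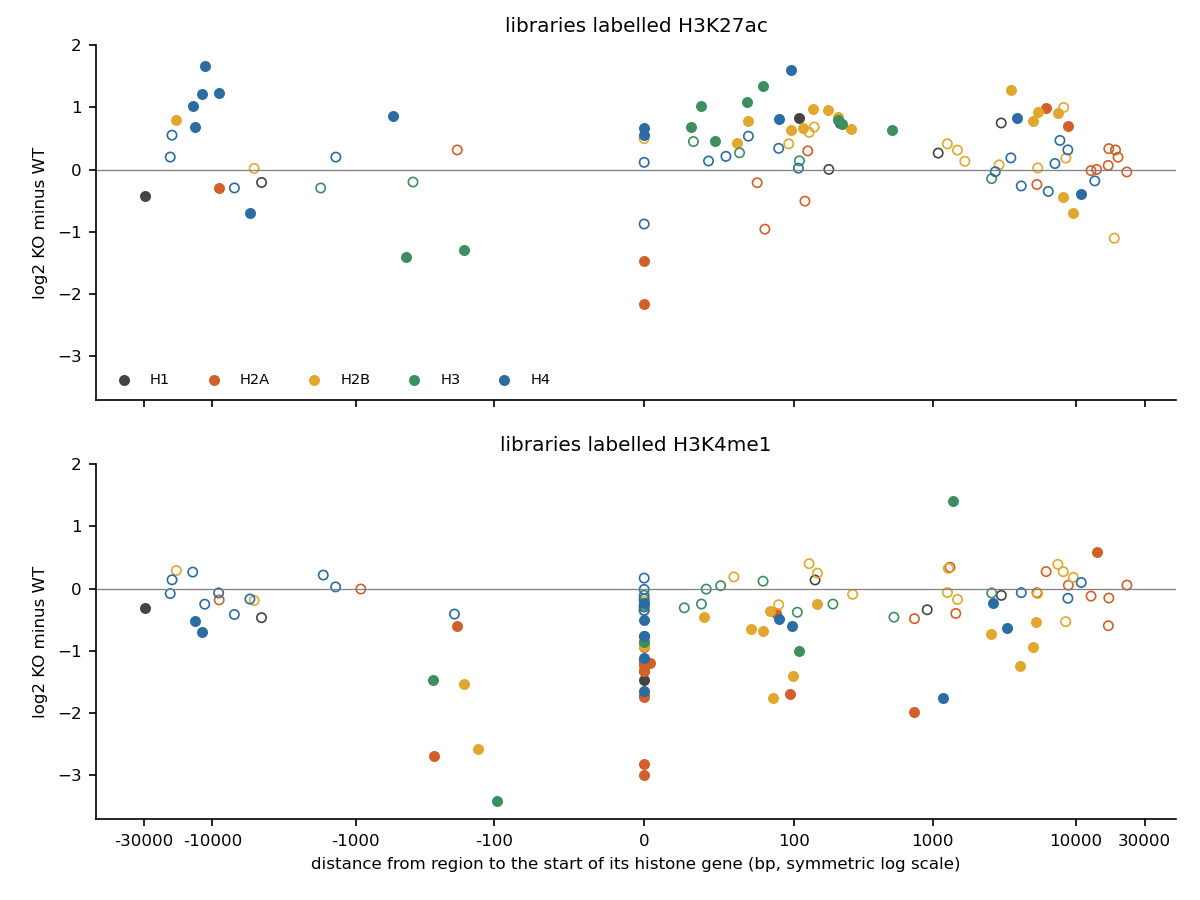
Log2 difference between KO and WT against distance from the region to the start of its histone gene (symmetric log axis), for both mark labels, by histone class. Filled points passed the test. Of the 53 losses of the H3K4me1 label 42 lie within 500 bp of a start, and of the 36 gains of the H3K27ac label 21 do.

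Away from starts the marks moved in opposite directions at the sites of very dense input near Hist1h2bl and Hist1h4h. At 4989 bp from Hist1h2bl the H3K27ac label held 109 and 113 CPM in KO and 64.9 and 64.8 CPM in WT (0.77 ± 0.04), and the H3K4me1 label held 61.1 and 64.3 CPM in KO and 122 and 119 CPM in WT (-0.94 ± 0.05). At -13192 bp from Hist1h4h the H3K27ac label rose from 40.2 and 39.6 CPM to 62.5 and 66.4, and the H3K4me1 label fell from 71.9 and 65.2 CPM to 48.3 and 46.7. The NIPBL regions at these sites held 127596 (Hist1h2bl) and 104757 (Hist1h4h) KO input reads per kb. The mark tables hold no input column of the study's own genotypes, so input was read there from overlapping regions of the other targets. In dense input 3874 bp from Hist1h4d the labels also moved apart (0.84 with H3K27ac, -0.64 with H3K4me1). At -29361 bp from Hist1h1e both fell (-0.42 and -0.31). Elsewhere in dense input away from starts the labels were not both called. Of the 36 gains with the H3K27ac label 9 overlapped a dense-input region of another target and 27 overlapped no region of the other targets. Of its 10 losses 6 overlapped a dense-input region, 1 a region with less input and 3 no region. All 6 lay away from starts. Of the 53 losses with the H3K4me1 label 12 overlapped a dense-input region, 5 a region with less input and 36 no region. The part of input in these results was not tested.

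The Hist3 genes and Hist4h4 lie outside the large clusters. At the H2A gene Hist3h2a on chromosome 11 the H3K4me1 label fell from 8.80 and 9.80 CPM to 7.84 and 6.39 (-0.40 ± 0.12, adjusted p = 0.00603). At the neighbouring H2B gene Hist3h2ba the H3K27ac label rose from 1.95 and 1.25 CPM to 2.84 and 2.13 (0.65 ± 0.21, adjusted p = 0.0184), with KO and WT not overlapping. The pseudogene Hist3h2bb-ps was not called for either label (2.71 and 2.62 CPM in KO and 2.25 and 1.76 in WT with the H3K27ac label). CTCF at Hist3h2a held 38.2 and 44.0 CPM in KO and 47.8 and 14.1 CPM in WT, with peaks listed in both KO libraries and in neither WT library, at 1359 KO input reads per kb. At the start of Hist4h4, whose promoter window held none of the searched motifs, the H3K4me1 label fell from 10.2 and 10.8 CPM to 5.29 and 4.47 (-1.11 ± 0.12, adjusted p = 4.96e-17), while the H3K27ac label was 2.33 and 2.24 CPM in WT and 2.88 and 2.40 CPM in KO and was not called. Of the Hist4h4 regions farther away, 1 WAPL region rose, as given above. The others were not called: 2 for NIPBL (3.14 to 5.41 CPM over the libraries), 1 each for CTCF and RAD21, and 3 for the marks. A further WAPL region, with 0 to 1.31 CPM, was too low to test.

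Genes that make, process and carry histones were read from 3 lists, with regions assigned by the same rule. Of all SMC3 regions 22.1% rose and 18.1% fell, and of those with a CTCF peak in both WT libraries 96.4% rose; CTCF peaks were not counted in the lists. Of 24 genes of histone gene transcription and message processing 13 had an SMC3 region. There SMC3 rose at 15 and fell at 2 of 36 regions, with a median log2 difference of 0.17. Lsm11, a subunit of the U7 particle that cuts histone messages, had rises at its start (21.5 and 19.0 CPM in KO, 1.89 and 2.00 CPM in WT) and at 17898 bp. Of 17 histone chaperone and import genes 9 had an SMC3 region. There SMC3 rose at 10 and fell at 2 of 19 regions tested (median 2.90). These included 5 regions nearest Chaf1b, a subunit of the chromatin assembly factor CAF-1. Of 11 replication-independent histone genes 9 had an SMC3 region. There SMC3 rose at 8 and fell at 3 of 18 regions (median 0.88). Among them was the rise 1585 bp from H3f3a, which encodes H3.3 (16.5 and 14.3 CPM in KO, 1.96 and 1.25 CPM in WT). The H3K4me1 label fell at 27, 11 and 14 regions of the 3 lists (of 88, 45 and 58) and rose at 4, 1 and 3, with medians of -0.14, -0.08 and -0.02, where 9.98% of all fell and 6.44% rose. At the start of Slbp, which binds the histone stem-loop, it went from 12.5 ± 0.65 CPM in WT to 3.36 ± 0.48 in KO (mean ± SD, n = 2; log2 difference -1.89), and at Npat from 3.53 and 4.69 CPM to 1.28 and 1.92 (-1.37). Such losses are common at starts, since 67.5% of all regions with this label within 500 bp of a gene start fell. The lists were not split by distance to the start. The H3K27ac label rose at 4, 2 and 2 regions and fell at 9, 7 and 6, of 97, 61 and 62, where 5.9% of all rose and 10.6% fell. RAD21 fell at 4 of 24, 2 of 10 and 2 of 11 regions, where 21.1% of all fell. WAPL rose at 7, 1 and 1 and fell at 9, 5 and 2 of 38, 20 and 15, where 13.1% of all rose and 27.6% fell. No CTCF or NIPBL region of the lists passed the edgeR threshold, and the lowest adjusted p-values were 0.311 and 0.0684.

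Regions of other genes within the Hist1 spans were few. SMC3 rose at 2 of 2 in the first span and at 3 of 4 in the second, where 22.1% of all SMC3 regions rose. The H3K27ac label rose at 14 and fell at 2 of 26 in the first span and rose at 4 and fell at 4 of 26 in the second, where 5.9% of all rose and 10.6% fell. The H3K4me1 label rose at 1 and fell at 0 of 20 and rose at 1 and fell at 3 of 17, where 6.44% of all rose and 9.98% fell. WAPL fell at 1 of 2 in the first span. No region of another gene lay inside the Hist2 span.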

How the data were processed

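ChIP-seq of 7 targets was deposited for 36 ChIP samples and 4 inputs. Per the submitters' processing notes, reads were handled with BWA, Picard, MACS2, bedtools, featureCounts and edgeR on mm9; versions are not given in the sources used here. The authors deposited raw counts per region, with 1 pooled input count column per genotype, input-subtracted scores, normalized signal (not tested here) and a peak list with scores for each library. The mark tables also hold 2 input columns of other samples, which were not used.

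Regions were joined to genes by the deposited annotation (smallest absolute distance, at most 200 kb). The members and gene lists were chosen with earlier results of these data known. KO and WT (2 libraries each) were compared on the deposited counts with edgeR 4.0.16 in R 4.3.3 (quasi-likelihood test, TMM scaling, filterByExpr, Benjamini-Hochberg adjustment over all regions of the target, threshold 0.05). Standard errors were the log2 difference over the root of F. CPM are deposited counts over TMM-scaled library size. DESeq2 1.42.0 was an alternative. Peaks were overlapped with bedtools 2.31.1 by at least 1 bp. Dense input means over 100 input reads per kb.

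The series calls the 2 libraries of a group biological replicates; p-values measure only the spread between them. Replicate numbers are not described as shared animals or days, so the fit has no replicate block. Regions named in the text came from 3 rules: the highest mean CPM in each class; up to 4 higher and 4 lower regions a target by size of change, among those called, not overlapping between groups and at or above the median level; and every region at Hist3 genes and Hist4h4. Regions named outside these rules were chosen after their values were seen. In simulated counts 128 to 163 of 200 regions changed 4-fold were recovered, with 1 to 13 false calls. The simulation gave every region a dispersion of 0.05 and held no deviating library. It therefore does not measure how many such changes the fits of these data recover. Reads per library are given with the results; shallower libraries give less precise values.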

Additional observations from a re-analysis of the deposited data

How the results depend on the processing

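SMC3 had 15 to 19 histone calls under the alternatives run, with 16 to 19 when a library was left out. Of the 19 with background scaling and of the 19 without WT 1, 17 were also among the 17 of all libraries, as were 16 of 17 with input-subtracted counts. The H3K4me1-labelled calls ran from 37 to 61. The only reversal was SMC3 at Hist1h2be 9676 bp, at -8.79 with input-subtracted counts. CTCF calls ran from 0 to 33 when 1 library was left out, RAD21 from 0 to 19, NIPBL from 0 to 2, WAPL from 0 to 17 and H3K27ac-labelled from 35 to 38. With DESeq2 the calls were 10 for RAD21, 3 for WAPL and 23 for the H3K27ac label. RAD21 had 0 calls with background scaling, input-subtracted counts, library totals, no filter, the replicate block, or without dense-input regions. NIPBL had 10 with background scaling, 0 with input-subtracted counts, 12 with the replicate block (10 higher, 2 lower) and 0 of the 2 regions left without dense input, where none of the 6 could be tested; library totals split it 6 higher and 2 lower. WAPL had 22 with background scaling, 5 with input-subtracted counts, 2 without dense-input regions and 7 within 10 kb; library totals split it 16 higher and 3 lower. Of regions with an ATPneg peak, NIPBL had 3 in both libraries and 4 with stricter scores, RAD21 8 in both, and WAPL 0 in both and 0 with stricter scores. Fewer regions were tested without dense input; otherwise the cause was not tested. Background scaling moved the median of all regions by 0.87 (log2) for RAD21, 0.45 for WAPL, 0.37 for SMC3, 0.30 for CTCF, 0.16 for NIPBL and -0.20 for the H3K27ac label. Samples with the same replicate number did not deviate together (correlations from -0.217 to 0.030), and pairing them the other way for CTCF gave 0 calls. The last exclusions (dense input, crossed pairing) were chosen after seeing the data.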
